A study of Oryza sativa with 12 samples.

Results

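Dehydrins and other late embryogenesis abundant (LEA) proteins are represented here by 6 rice genes, RAB21, RAB16B, RAB16C, RAB16D, RAB25 and LEA19. They were chosen by name. A probe set counted as a member when it maps to 1 gene whose symbol or synonym is one of these names, which gave 7 probe sets among the 57381 on the array and 6 genes among the 17905 that have a probe set. RAB21 has 2 probe sets and each other gene has 1. The plants were rice of the japonica cultivar Dongjin, either WT or *osnadk1*, a single T-DNA insertion line in the NAD kinase gene OsNADK1. Plants were 2.5 months old, and RNA was taken from their youngest leaf that had fully expanded. There were 4 groups of 3 arrays, WT and *osnadk1* under normal growth (day 0 of the treatment, soil moisture 47.3%) and WT and *osnadk1* on day 15 of drought (soil moisture 8.5%), and plants of the genotypes shared a pot in pairs. The comparison of drought with normal growth therefore also holds 15 days of age. The titles of all 6 WT arrays carry the tag re-analysis, which no *osnadk1* title does. Anything that comes with this tag cannot be told apart from genotype. The paper profiled the mutant because of its sensitivity to drought.

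Dehydrins are group 2 LEA proteins, small, very hydrophilic and largely unfolded in solution, with a lysine-rich repeat that can bind membranes and other proteins. They accumulate in drying seeds and in leaves that lose water. Many of their genes are switched on by abscisic acid (ABA), through receptors that inhibit clade A protein phosphatases (PP2C), SnRK2 kinases that are released by this, and bZIP factors that bind the ABA-responsive element (ABRE) of the promoter. RAB21 and the RAB16 genes are the classical rice genes of this kind, named for their response to ABA. LEA19, also listed as OsLEA3-1, codes for a group 3 LEA protein, a family that folds into helices on drying. In the reference annotation RAB16D, RAB16C, RAB16B and RAB21 lie in this order on chromosome 11 with no other protein-coding gene between them, while RAB25 lies on chromosome 1 and LEA19 on chromosome 5. Genes of such a cluster resemble each other. The LEA19 probe set and 1 of the 2 for RAB21, the one that stands for the gene below, carry a suffix. Affymetrix gives it to probes shared by several transcripts, so these signals are uncertain as to the exact gene copy. The other RAB21 probe set lacks the suffix, but probe sequences were not checked.

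Values are log2 MAS5 signals, scaled by the authors so that the trimmed mean signal was close to 500.1 on every array. Array medians lay between 5.08 and 5.43, and a signal below the median of its own array is called background here. The descriptions of the arrays carry 2 kinds of prefix, and the 6 arrays with each are called jobs A and B. They may be hybridisation jobs, which the labels do not state. Job A holds *osnadk1* replicates 1 and 2 and WT replicate 1 of each condition, and job B the others. The 3 normal-growth arrays of job A stood apart from the other 9. On them CCA1, a morning gene of the circadian clock, lay between 13.02 and 13.79 and PCL1, an evening gene of the clock, between 6.08 and 6.90, against 7.31 to 8.63 and 14.38 to 14.99 elsewhere. The labels give no time of harvest, so the part that time of day plays in any value below was not tested. OsNADK1 was between 3.96 and 5.65 on the 6 *osnadk1* arrays and between 9.43 and 10.27 on the 6 WT arrays. The leaf markers CAB2R, RCABP69, RCABP89 and RBCS were at 13.71 or more on every array, and RBCS-A was at background on 9 of the 12. Of 7 seed storage genes, 4 were at background on all arrays and GLUA2 and GLUB-5 on none. In bulk leaf RNA, fewer cells that express a gene and less RNA in each cell cannot be told apart. Replicates are biological by their labels, but the plants and pots behind each are not given, and p-values refer to the spread among the arrays alone.

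RAB21 (LOC4350454, also known as RAB16A) was at background under normal growth and at or above the array median on 5 of 6 drought arrays, far above it on 3. On the probe set that stands for the gene, the 3 WT arrays under normal growth read 2.68, 5.29 and 2.89 and the 3 *osnadk1* arrays read 4.58, 2.38 and 3.28 (log2 signal, replicates 1 to 3). On day 15 of drought the WT arrays read 6.78, 10.56 and 11.93 and the *osnadk1* arrays 5.52, 4.75 and 9.50. All 6 arrays of normal growth were below their array's median, and under drought only *osnadk1* replicate 2 was. The highest 3 of the 12 values were the 3 job B drought arrays. The other RAB21 probe set gave the same picture with a wider range. It read 1.03, 1.52 and 1.97 in WT and 1.52, 2.03 and 0.92 in *osnadk1* under normal growth, then 6.85, 11.77 and 13.03 in WT and 1.98, 2.20 and 9.82 in *osnadk1* under drought. On this probe set both job A arrays of droughted *osnadk1* stayed at background, next to the values of unstressed leaves, whereas job B replicate 3 was high.

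RAB16B (LOC4350453), the dehydrin gene beside RAB21, was at background on all arrays of normal growth. It read 2.79, 0.36 and 1.65 in WT and 0.81, 0.27 and 0.00 in *osnadk1* under normal growth. On day 15 it read 5.03, 9.79 and 10.96 in WT and 3.41, 2.64 and 7.90 in *osnadk1*. It reached the median of the array on 3 of 12 arrays, which are the 3 drought arrays of job B. WT replicate 1, from job A, fell just short of its array's median of 5.18.

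LEA19 (LOC4339480) was above background on every array of droughted WT and on 1 of 3 arrays of droughted *osnadk1*. Under normal growth it read 0.47, 2.00 and 1.34 in WT and 0.41, 0.61 and 3.70 in *osnadk1*, all at background. On day 15 it read 6.30, 8.32 and 9.64 in WT and 1.60, 2.52 and 7.28 in *osnadk1*. All 3 WT arrays were then above their medians, and of the *osnadk1* arrays only the job B array was. The job A arrays of droughted *osnadk1* lay below *osnadk1* replicate 3 of normal growth, so the 2 conditions overlapped in the mutant.

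**Figure D1:**
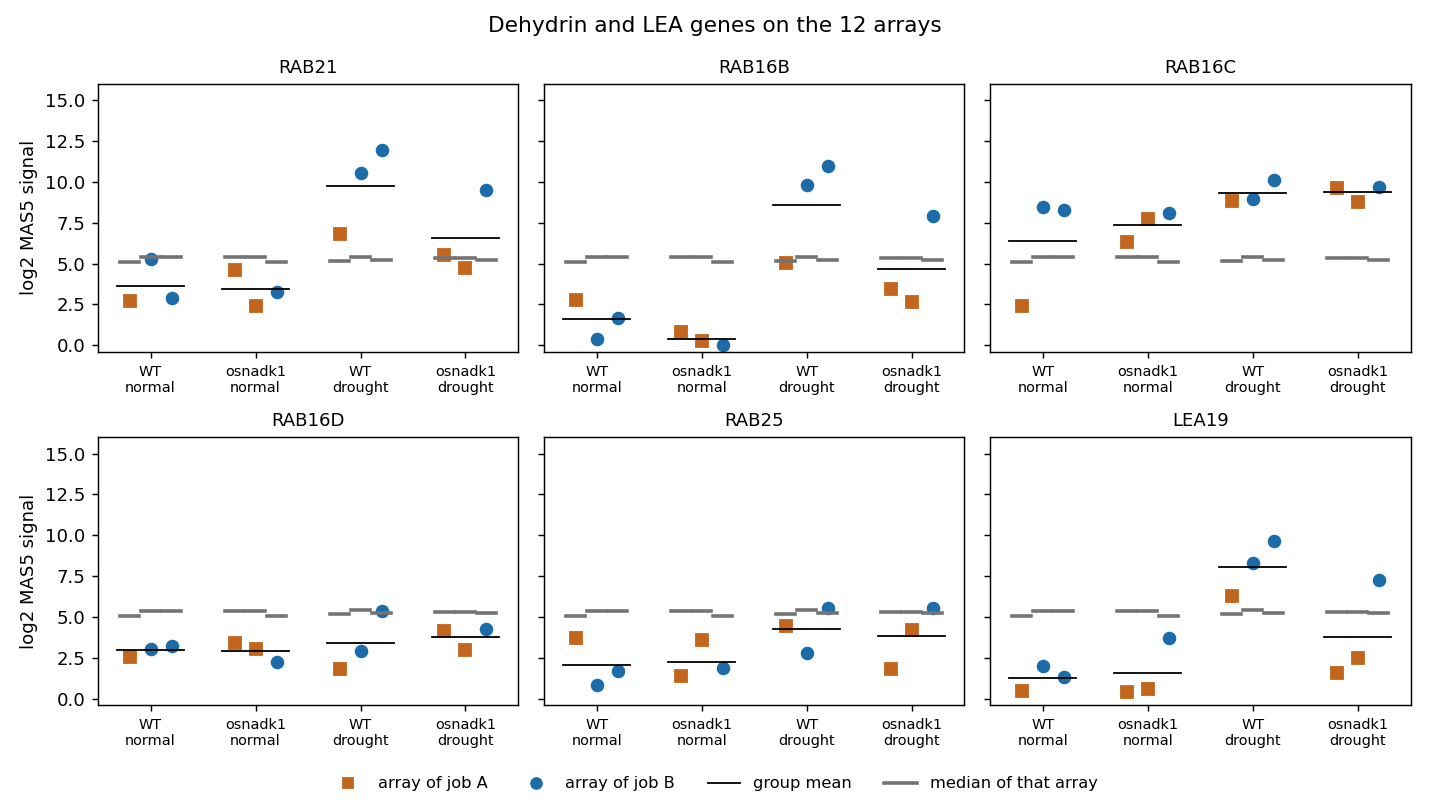
Log2 MAS5 signal (y axis) of each of the 6 genes on each array of the 4 groups (x axis, 3 arrays per group), orange squares for job A and blue circles for job B. Black lines are group means and short grey lines the median of each array, below which a signal is called background. RAB21, RAB16B and LEA19 are at background on all 6 arrays of normal growth and highest on the 3 job B drought arrays, and RAB16C is above the median on 11 of 12 arrays.

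RAB16C (LOC4350452) was above background in well-watered leaves on 5 of 6 arrays. It read 2.38, 8.46 and 8.30 in WT and 6.31, 7.72 and 8.08 in *osnadk1* under normal growth. On day 15 it read 8.83, 8.95 and 10.10 in WT and 9.62, 8.74 and 9.71 in *osnadk1*. All 6 drought arrays lay above all 6 arrays of normal growth, within a narrow range, the lowest at 8.74 against 8.46 for the highest of normal growth. The share of all probe sets separated in this way was not counted. The 3 lowest values were the 3 normal-growth arrays of job A, and the lowest of these, WT replicate 1, was the only one at background. The 3 job B arrays of normal growth reached 8.08 to 8.46, within 1 log2 unit of the lowest drought array. Over the 12 arrays RAB16C correlated with RAB21, RAB16B and LEA19 at Pearson's r of 0.58, 0.42 and 0.58, while those 3 genes correlated with each other at 0.90 to 0.94. These correlations describe arrays that share groups, jobs and scaling.

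Some genes of the ABA pathway were also low on the 3 normal-growth arrays of job A. Of 23 tested genes of ABA metabolism, receptors, phosphatases, kinases and ABRE-binding factors, 6 lay below all other 9 arrays there (26.1%) and 2, ABA1 and SAPK1, above them (8.7%), against 13.8% and 8.64% of all probe sets tested. The 6 were PP2C08 and 5 SnRK2 kinases. SAPK9, a SnRK2 kinase, lay between 6.91 and 7.55 there and between 12.73 and 13.39 on the other 9 arrays. SAPK7, another kinase of the family, lay between 6.58 and 7.11 there against 9.19 to 10.31. PP2C08, a clade A phosphatase, lay between 6.92 and 9.90 there, lowest on WT replicate 1 as RAB16C was, against 9.97 to 11.16. The part that whatever sets these 3 arrays apart plays in the rise of RAB16C was not tested beyond the values within each job.

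**Figure D2:**
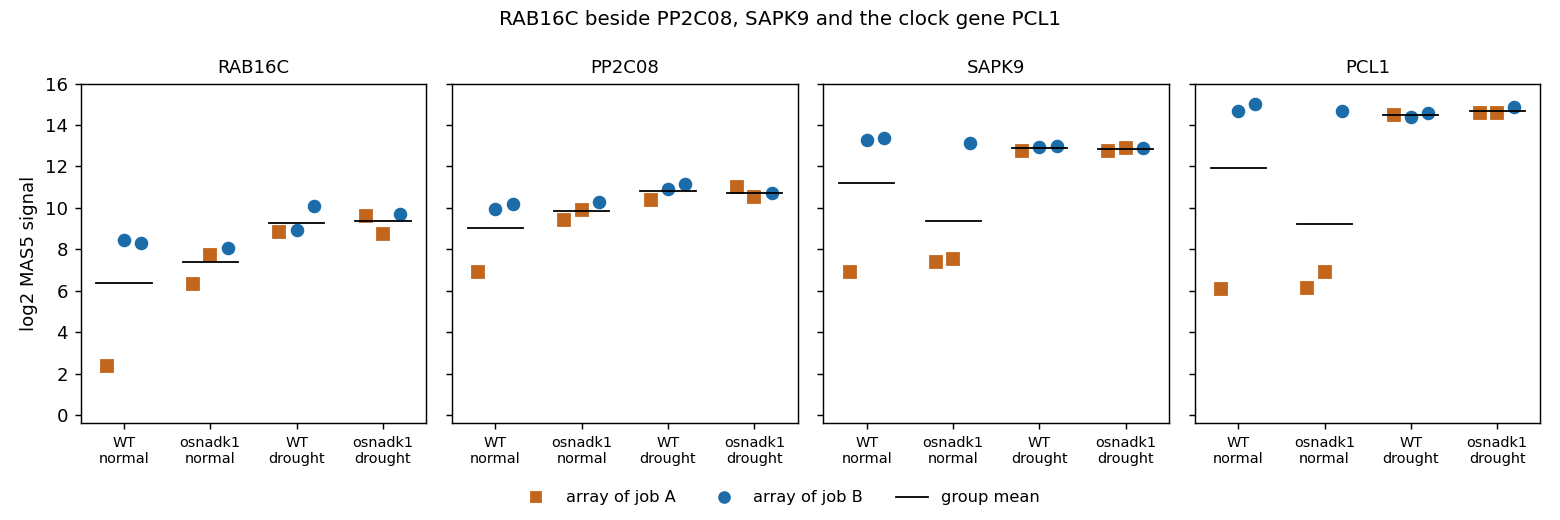
Log2 MAS5 signal (y axis) of RAB16C, the phosphatase gene PP2C08, the kinase gene SAPK9 and the clock gene PCL1 on each array of the 4 groups (x axis, 3 arrays per group), orange squares for job A, blue circles for job B, black lines for group means. The 3 normal-growth arrays of job A are the lowest for each gene, between 2.38 and 7.72 for RAB16C and between 6.08 and 6.90 for PCL1.

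RAB16D (LOC4350451) and RAB25 (LOC4326935) were mostly at background and did not pass the filter for testing. RAB16D, a dehydrin gene at the other end of the cluster from RAB21, read 2.57, 3.07 and 3.26 in WT and 3.43, 3.07 and 2.25 in *osnadk1* under normal growth. On day 15 it read 1.85, 2.96 and 5.39 in WT and 4.13, 2.99 and 4.27 in *osnadk1*. Its single value above an array's median was WT replicate 3 under drought. RAB25, a dehydrin gene also listed as rDRP1, read 3.72, 0.84 and 1.74 in WT and 1.38, 3.60 and 1.87 in *osnadk1* under normal growth. On day 15 it read 4.44, 2.82 and 5.54 in WT and 1.81, 4.21 and 5.57 in *osnadk1*. Replicate 3 of each genotype under drought, both of job B, were its only values above background, and only just so. When all probe sets were fitted without a filter, RAB25 differed by 3.16 ± 1.08 (log2, ± SE) between drought and normal growth in job B (limma, adjusted p = 0.273) and RAB16D by 1.35 ± 0.88 (limma, adjusted p = 0.677), which did not pass.

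Of the 6 genes, 4 were tested, those at or above the array median on at least 3 arrays. RAB21, RAB16B and LEA19 met this only through drought arrays, so they had to be higher in drought to be tested, and their number is given as a description. With the 4 groups fitted across all 12 arrays, no member passed an adjusted p of 0.05 for drought in WT or in *osnadk1*. In WT, 0.00623% of the 32110 probe sets tested passed upward (limma), and 0% downward. In *osnadk1* the share was 0% both ways, with 3966 probe sets at an unadjusted p under 0.05. The differences in WT were 6.14 ± 1.46 for RAB21 (log2, ± SE of 3 against 3 arrays; limma, adjusted p = 0.201), 6.99 ± 1.65 for RAB16B (adjusted p = 0.201), 6.82 ± 1.52 for LEA19 (adjusted p = 0.181) and 2.91 ± 1.30 for RAB16C (adjusted p = 0.505). All 4 genes had every WT drought array above every WT array of normal growth, as did 9.86% of the probe sets tested. RAB21, RAB16B and LEA19 were wholly at background under normal growth, so the sizes of their fitted differences rest on background signals. Only a bound on their folds can be given, taking the background group at its array medians. The mean signal of RAB21 was at least 22.2-fold higher, that of RAB16B at least 9.91-fold and that of LEA19 at least 6.98-fold. These bounds allow for the unknown background level but not for the spread among arrays. WT replicate 1 of drought, from job A, read only 6.78 for RAB21 and 5.03 for RAB16B, the latter at background. In *osnadk1* the estimates were 3.17 ± 1.46 for RAB21 (limma, adjusted p = 0.407, at least 2.47-fold), 4.29 ± 1.65 for RAB16B (adjusted p = 0.403), 2.23 ± 1.52 for LEA19 (adjusted p = 0.521) and 1.99 ± 1.30 for RAB16C (adjusted p = 0.505). Leaving out *osnadk1* replicate 3 of drought, the job B array, took RAB21 to 1.72, RAB16B to 2.67 and LEA19 to 0.49, and leaving out other single arrays took RAB21 to between 2.66 and 4.09 and LEA19 to between 1.65 and 3.33. In WT the difference of RAB16C rested on replicate 1 of normal growth, being 0.92 without it, 6.45 within job A and 1.15 within job B. On the probe sets that stand for the genes, RAB21, RAB16B and RAB16C had no overlap of conditions in the mutant, as did 10.5% of probe sets in the upward direction. For RAB21 and RAB16B the nearest readings of the conditions were all at background, and the other RAB21 probe set overlapped. With job as a block RAB21 and LEA19 passed in WT (limma, adjusted p = 0.0432 and 0.0219). With a separate mean for each job and treatment all 4 members passed in WT (limma, adjusted p from 0.0021 to 0.0335), and RAB21 (0.0179) and RAB16B (0.00567) passed in *osnadk1*. That fit called 3198 and 2142 probe sets in all. By the looser rule of a 2-fold change with an unadjusted p under 0.05, all 4 members were higher in WT, as were 2.24% of probe sets, and RAB16B alone was in *osnadk1*, as were 3.64%.

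Within job B, which has 3 arrays of each condition, RAB21, RAB16B and LEA19 had higher signals under drought. They were tested only because drought arrays of job B were high, so their calls here are a description. The sizes rest on background signals under normal growth. A limma fit with a mean for each job and treatment and a term for genotype gave 6.84 ± 0.80 for RAB21 (log2, ± SE, adjusted p = 0.00369, at least 41.5-fold), 8.88 ± 0.81 for RAB16B (adjusted p = 0.00225, at least 19.3-fold) and 6.07 ± 1.22 for LEA19 (adjusted p = 0.0337, at least 8.75-fold). RAB16C differed by 1.31 ± 0.88 (limma, adjusted p = 0.565). Of all probe sets tested, 1.16% passed upward and 0.673% downward in job B. The calls of RAB21 and RAB16B held in all 24 and 22 alternative settings in which they were tested. LEA19 lost its call in 6 of 22, at adjusted p of 0.0618 with no variance trend, 0.0925 and 0.147 without WT replicates 2 and 3 of normal growth, 0.113 and 0.207 without WT replicates 2 and 3 of drought, and 0.0935 without *osnadk1* replicate 3 of drought (limma).

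Within job A RAB21 rose by 2.47 ± 0.80 (limma, adjusted p = 0.0421, at least 1.32-fold) and RAB16C by 3.59 ± 0.88 (adjusted p = 0.0115). RAB21 was tested only through drought arrays, so its call is a description here as well. RAB16B differed by 2.40 ± 0.81 (adjusted p = 0.0503) and LEA19 by 2.98 ± 1.22 (adjusted p = 0.102). Both genes were at background on the 3 arrays of normal growth, and RAB16B on those of drought too. RAB16B passed in 5 of 21 settings, at an adjusted p (limma) of 0.00746 with no variance trend, 0.0314 without *osnadk1* replicate 3 of normal growth, 0.0302 and 0.0499 without WT replicates 2 and 3 of normal growth, and under the 2-fold rule, which LEA19 passed as well. Of all probe sets tested, 16.2% passed upward and 9.02% downward in job A, whose arrays of normal growth are those that stand apart. At 2-fold with an unadjusted p all 4 members were higher, as were 9.42% of probe sets. The call of RAB21 was close to the threshold and ended in 14 of 23 alternative settings, among them the other probe set (adjusted p = 0.14) and leaving out *osnadk1* replicate 2 of normal growth, *osnadk1* replicate 1, 2 or 3 of drought, WT replicate 1 of normal growth, or WT replicate 1 or 2 of drought (limma, adjusted p from 0.0531 to 0.159). Without WT replicate 1 of drought the call of RAB16C ended too (limma, adjusted p = 0.0549).

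**Figure D3:**
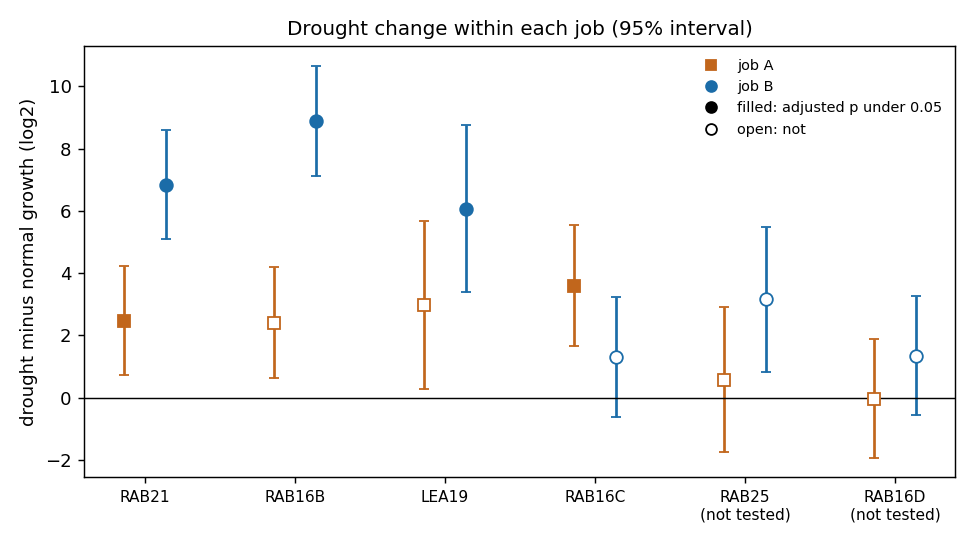
Drought minus normal growth (y axis, log2) for each gene (x axis) in job A (orange squares) and job B (blue circles), 3 arrays of each condition per job, from limma with a genotype term. Bars are 95% intervals and filled symbols have an adjusted p under 0.05. RAB21, RAB16B and LEA19 are filled in job B at 6.84, 8.88 and 6.07, and RAB16C is filled in job A at 3.59. RAB25 and RAB16D were not tested and their values come from a fit without a filter.

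The drought change differed between the jobs for RAB21 and RAB16B. RAB16B had reached the array median only on the 3 job B drought arrays, and RAB21 and LEA19 on fewer than 3 job A arrays. All of them were therefore tested only because job B drought arrays were high, and their differences are a description. The sizes rest on background signals in job A. The change was larger in job B by 4.37 ± 1.13 log2 units for RAB21 (limma, adjusted p = 0.0229) and by 6.48 ± 1.14 for RAB16B (adjusted p = 0.00312), where 5.97% of probe sets tested were called in the same direction and 9.36% in the other. For LEA19 the difference was 3.09 ± 1.73 (adjusted p = 0.278), which passed where low signals were set to a floor (0.0332) or had 16 added before the log (0.0227), and for RAB16C it was -2.28 ± 1.25 (adjusted p = 0.265). The call of RAB21 ended without *osnadk1* replicate 2 of drought (limma, adjusted p = 0.0606), without WT replicate 3 of normal growth (0.0531) and without WT replicate 3 of drought (0.0707). The genotypes are unevenly split between the jobs, with 2 *osnadk1* and 1 WT in each condition of job A and the reverse in job B. The fit takes out only a constant genotype difference. The same order was seen within each genotype, as the drought arrays of RAB21 in WT were at 6.78 in job A and 10.56 and 11.93 in job B, and in *osnadk1* at 5.52 and 4.75 in job A and 9.50 in job B. On the arrays of normal growth RAB21 and RAB16B were at background in both jobs.

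Under drought RAB21, RAB16B and LEA19 had lower mean signals in *osnadk1* than in WT, and none passed the test. Mean levels were 6.59 ± 2.55 against 9.76 ± 2.66 for RAB21 (log2 signal, *osnadk1* against WT, mean ± SD, n = 3 arrays), 4.65 ± 2.84 against 8.59 ± 3.14 for RAB16B and 3.80 ± 3.05 against 8.09 ± 1.68 for LEA19. The differences were -3.17 (95% interval -6.39 to 0.05; limma, adjusted p = 0.956), -3.94 (-7.57 to -0.31; adjusted p = 0.922) and -4.29 (-7.64 to -0.94; adjusted p = 0.859). RAB16C was level at 9.36 ± 0.54 against 9.29 ± 0.70, a difference of 0.06 with an interval from -2.81 to 2.93 (adjusted p = 0.999). In this comparison 0.0156% of the probe sets tested passed downward and 0.0467% upward. The other RAB21 probe set had a larger difference, -5.88, which did not pass either. Its size rests partly on background signals of the job A *osnadk1* arrays. RAB16B, LEA19 and the other RAB21 probe set had an unadjusted p under 0.05 (limma), as did 5.28% of all probe sets in either direction. With a fold of at least 2 they were lower, as were 1.17% of probe sets. RAB21, RAB16B and LEA19 were tested only because arrays of droughted WT were high, so these differences and p-values are a description. The *osnadk1* and WT arrays overlapped for each of the 4 genes, since *osnadk1* replicate 3 of job B lay above WT replicate 1 of job A.

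The uneven split of genotypes between jobs bears on this comparison, and the differences within jobs are therefore given. In job B, where 1 *osnadk1* array stands against 2 WT arrays and all are above background, *osnadk1* differed by -1.75 log2 units for RAB21, -2.47 for RAB16B and -1.71 for LEA19, less than the pooled difference for each. In job A, where 2 *osnadk1* arrays stand against 1 WT array, RAB21 differed by -1.65, with *osnadk1* replicate 2 at background. RAB16B was at background in both genotypes there, so no direction is read. LEA19 was at background on both *osnadk1* arrays and above it on the WT array, as was the other RAB21 probe set, and no size is given. RAB16C differed by 0.35 and 0.18. The jobs hold too few arrays for a test of a single gene by permutation, and 3 against 3 arrays allow no exact p below 0.1.

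**Figure D4:**
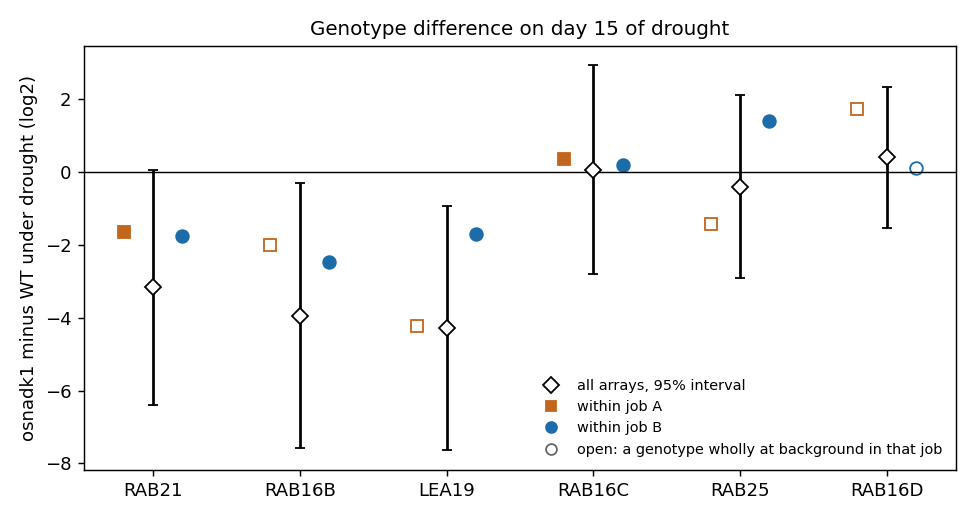
*osnadk1* minus WT on day 15 of drought (y axis, log2) for each gene (x axis). Open diamonds with bars are limma estimates from 3 arrays per group with 95% intervals, orange squares the difference within job A (2 *osnadk1* arrays, 1 WT array) and blue circles within job B (1 and 2 arrays). Open squares and circles mark a genotype wholly at background in that job, where the size is not read. In job B RAB21, RAB16B and LEA19 are at -1.75, -2.47 and -1.71 and RAB16C is at 0.18, with no adjusted p below 0.859 for these 4 genes on the probe sets shown. RAB25 and RAB16D are shown from a fit without a filter.

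Under normal growth no member passed between the genotypes, where 0.0654% of probe sets passed upward and 0.081% downward (limma). RAB16C, the one member above background there, differed by 0.99 ± 1.30 (log2, ± SE; adjusted p = 0.904), made up of 4.63 within job A and -0.30 within job B. WT replicate 1 carried that difference, as without it RAB16C differed by -1.01. The other members were at background in both genotypes and are given no fold. The difference between the drought changes of the genotypes did not pass either, and 0% of probe sets did in either direction. It was -2.97 ± 2.07 for RAB21, -2.70 ± 2.33 for RAB16B and -4.59 ± 2.15 for LEA19 (log2, *osnadk1* minus WT, ± SE; limma, adjusted p = 0.975 for each). For RAB16C it was -0.93 ± 1.84 (adjusted p = 0.983). RAB21, RAB16B and LEA19 were tested only because arrays of droughted WT were high, so their values are a description. All probe sets together counted 1271 at an unadjusted p under 0.05 in that comparison.

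Other LEA genes matched by name were DHN1, a dehydrin gene also known as LIP9, and EM, which codes for a group 1 LEA protein of the embryo. DHN1 was well above background on all arrays. It read 10.77, 10.40 and 10.06 in WT and 10.83, 10.45 and 10.05 in *osnadk1* under normal growth, and 10.99, 12.50 and 13.36 in WT and 10.43, 10.39 and 11.81 in *osnadk1* under drought. The 3 job B drought arrays were again the highest of the 12, and of the job A drought arrays both *osnadk1* arrays lay among those of normal growth, with WT replicate 1 just above them. DHN1 rose by 2.39 ± 0.25 in job B (limma, adjusted p = 0.00237) and differed by -0.08 ± 0.25 in job A (adjusted p = 0.864), and the jobs differed by 2.47 ± 0.35 (adjusted p = 0.000845). EM differed by 2.46 ± 0.84 in job B (adjusted p = 0.194) and by -1.61 ± 0.84 in job A (adjusted p = 0.195). Its jobs differed by 4.07 ± 1.19 (adjusted p = 0.0401). EM was at background on the 3 job A drought arrays, at 5.31 and 2.53 in *osnadk1* and 3.31 in WT. Its sizes in job A and between the jobs therefore rest on background signals. Of all probe sets tested, 1.16% passed upward in job B. For the difference between jobs 5.97% passed upward and 9.36% downward. With the 4 groups fitted across all arrays, DHN1 differed by 1.88 ± 0.55 with drought in WT (adjusted p = 0.273) and by 0.43 ± 0.55 in *osnadk1* (adjusted p = 0.739).

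Of the upstream genes of the ABA pathway, 1 of 7 clade A phosphatase genes, 1 of 10 SnRK2 kinase genes and 1 of 2 tested ABRE-binding factor genes passed upward in job B, as did 1.16% of all probe sets tested, and none of these fell. They were PP2C68 (1.88 ± 0.28, limma, adjusted p = 0.0108), SAPK4 (1.14 ± 0.20, adjusted p = 0.0195) and BZIP23 (1.76 ± 0.24, adjusted p = 0.00775), a bZIP factor that binds the ABRE. The 7 phosphatase genes had a median difference of 1.28 in job B and the 10 kinases of 0.08, against -0.01 over all probe sets tested. In job A PP2C68 fell by 1.18 (adjusted p = 0.00934), BZIP23 differed by -0.58 (adjusted p = 0.105), and 1 phosphatase gene rose, PP2C08 (1.89 ± 0.50, adjusted p = 0.0169). Of the 10 kinases in job A, 4 rose and 1 fell, where 16.2% and 9.02% of all probe sets did, SAPK9 by most (5.51 ± 0.14, adjusted p = 2.29e-09), then SAPK7 (2.74), SAPK10 (1.37) and SAPK6 (1.27), while SAPK1 fell by 0.60. Each of these rises is measured against the 3 arrays of normal growth that stand apart.

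**Figure D5:**
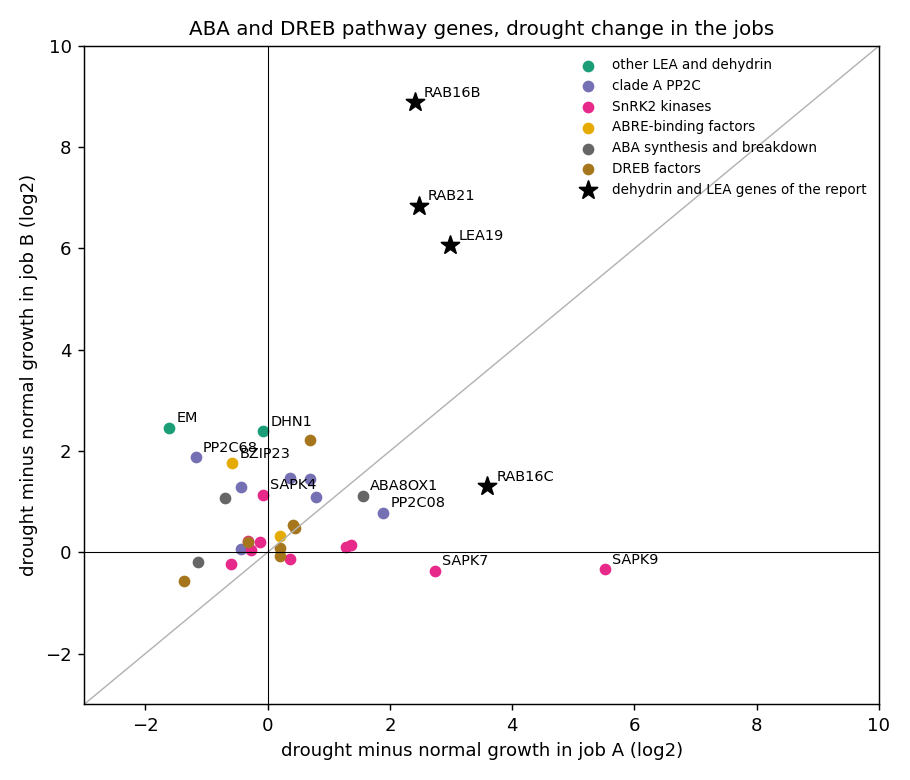
Drought minus normal growth (log2) in job A (x axis) and job B (y axis), one point per gene, coloured by list, with black stars for the 4 tested genes of the report and a grey line where both jobs are equal. The stars of RAB16B, RAB21 and LEA19 lie well above the line with 8.88, 6.84 and 6.07 in job B, PP2C68 and BZIP23 lie above it at 1.88 and 1.76, and SAPK9 lies below it with 5.51 in job A.

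Genes of ABA metabolism (3 tested) and perception and the DREB factors, which bind a different element of stress promoters, gave no call in job B. In job A, 16.2% of all probe sets tested passed upward and 9.02% downward. There ABA8OX1, which breaks ABA down, rose by 1.56 ± 0.51 (limma, adjusted p = 0.0461) and ABA1, which acts in ABA synthesis, fell by 1.15 (adjusted p = 0.00296). These changes are measured against the 3 normal-growth arrays that stand apart, on which ABA1 lay above all other 9. Under normal growth ABA8OX1 read 7.02, 6.70 and 7.33 in *osnadk1* and 9.12, 9.97 and 9.17 in WT (replicates 1 to 3). The job A drought arrays read 9.21 and 8.97 in *osnadk1* and 9.33 in WT. The rise of ABA8OX1 in job A therefore lay mainly in *osnadk1*, which was low under normal growth in both jobs. The cause was not tested. PYL5, the only receptor gene matched, rose by 0.48 ± 0.14 in job A (adjusted p = 0.0277) and differed by 0.03 in job B. None of 7 tested DREB genes passed in either job, and DREB1G had the largest difference, 2.22 ± 0.86 in job B (adjusted p = 0.263). VP1, a seed regulator of dehydrin genes, was at background on all arrays. No gene of these lists passed in the drought, genotype or interaction comparisons of the 4 groups.

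Among 15397 genes compared, those whose pattern was most like the mean of the 4 tested members over the 12 arrays had Pearson's r from 0.95 to 0.98. The closest were LOC4330173 (r = 0.98), R40C1 (r = 0.98), which codes for an ABA- and salt-responsive protein with a lectin-like repeat, LOC4326874 (r = 0.97), LOC4329556 (r = 0.97) and LOC4340504 (r = 0.97). They were followed by LOC4346387, LOC4331460, LOC4340011, LOC4340978 and LOC4338956. R40C1 was higher in drought than in normal growth by 1.71 log2 units over all arrays and LOC4346387 by 3.11. In WT they differed by 2.33 (limma, adjusted p = 0.159) and 4.45 (adjusted p = 0.106), which did not pass. All arrays share the same scaling, groups and jobs, and the likeness is a description.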

How the data were processed

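RNA of leaves was hybridised to 12 Affymetrix rice arrays, 3 in each of 4 groups. The deposited table holds log2 signals from MAS5, run by the authors (version not given in the sources used here) with scaling of each array. Detection calls were not used here, so the array median stood in for background. A trimmed mean (2% cut on each side) of about 500.1 on each array shows the scaling, and no further normalization was applied. Of 57381 probe sets, 123 controls were left out, 22436 mapped to 1 gene, 95 to several and 34850 to none (assembly ASM3414082v1 tables). The number of arrays limits the precision.

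Linear models with a mean-variance trend were fitted in limma 3.58.1 (R 4.3.3) with Benjamini-Hochberg adjustment over 32110 probe sets that reached the array median on at least 3 arrays, for 8 comparisons. These are drought in each genotype, genotype in each condition, their interaction, drought in each job and the difference between jobs. Overlap between comparisons that share arrays was not tested. The fit was also run on simulated independent values with no job effect, which cannot show how it handles the jobs here. The probe set of highest mean stood for a gene. A fold bound is the brighter group's mean over the dimmer group's mean, with each dim signal raised to its array's median. It makes no allowance for the spread among arrays.

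The members and gene lists were chosen with earlier results of these data known. Named genes are the 6 members, up to 4 genes of each list and any gene called in it, the 10 genes most like the members and OsNADK1. Genes outside that rule, among them the SnRK2, PP2C, clock and leaf genes set beside RAB16C or used to check the arrays, were named after their values were seen. The lists were ABA metabolism, receptors, clade A PP2C, SnRK2, ABRE-binding factors, DREB, other LEA, clock, leaf and seed genes, and the leaf and seed lists were completed by name once the reference was at hand. Sequences were not used here.

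Other settings were tried one at a time. They changed the scaling (quantile normalization, centring on the array median), the filter (none, or on the mean signal), low signals (a floor at percentile 25, or 16 added before the log), the variance trend, the probe set and the call rule (2-fold with an unadjusted p). They also changed the model, by a block for replicate or job, a job by treatment block, no genotype term or only the groups compared, and the arrays, by using 1 job, dropping each array in turn or dropping the normal-growth arrays of job A. Fits on the arrays of 1 job for the drought change within jobs were added after seeing the data.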

Additional observations from a re-analysis of the deposited data

Results flagged for a closer look

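The drought change of RAB21 was larger in job B than in job A by 4.37 log2 units and that of RAB16B by 6.48, each by limma's test of the difference between the jobs (adjusted p = 0.0229 and 0.00312). RAB21 and RAB16B were tested only because job B drought arrays were high, so their differences are a description, and both sizes rest on background signals. Both genes were at background on the arrays of normal growth in each job. The jobs also differ in which arrays hold *osnadk1* and WT, and the cause was not tested.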

How the results depend on the processing

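Member calls depended mainly on how the jobs were handled. For drought in WT no member was called with the 4 groups, against 2 with job as a block, 4 with a job by treatment block, 1 in job A alone, 3 in job B alone and 4 at 2-fold with an unadjusted p. For drought in *osnadk1* it was 0 against 2 with the job by treatment block, and 1 each in job A alone, in job B alone and at 2-fold. Between genotypes, 1 was called in job A alone under normal growth, RAB16C, where WT has 1 array that is assumed to vary like the rest, and 2 at 2-fold under drought. The 2 at 2-fold under drought, RAB16B and LEA19, were tested only because arrays of droughted WT were high. In job A, 2 members were called, but 1 with no filter, the floor, the pseudocount, no genotype term, job A arrays alone (added later) or the other probe set, 4 at 2-fold, and 0 to 3 with 1 array left out. In job B, 3 were called, but 1 with the filter on the mean, which drops RAB16B and LEA19, and 2 to 3 with 1 array left out. For the job difference, 2 were called, but 1 with that filter, 3 with the floor or the pseudocount, and 1 to 2 with 1 array left out.

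Over all probe sets, drought in WT gave 2 calls, but 186 with job as a block, 3198 with the job by treatment block, and 0 to 89 with 1 array left out. Drought in *osnadk1* gave 0, but 6, 2142 and 0 to 2657.

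Signs turned for some values that did not pass with all arrays (ranges are with 1 array left out). Of these only RAB16C under normal growth passed in any setting, job A alone. RAB21 under normal growth (*osnadk1* minus WT) was 0.63 with job as a block, 0.80 in job A alone, 0.31 without *osnadk1* replicate 2 and 0.63 without WT replicate 2 (range -0.79 to 0.63). RAB16C there was -0.30 in job B alone and without the 3 normal-growth arrays of job A, and -1.01 without WT replicate 1 (range -1.01 to 2.03). LEA19 there was -0.76 without *osnadk1* replicate 3 and -0.10 without WT replicate 1 (range -0.76 to 0.88). RAB16C under drought was -0.07 and -0.12 without *osnadk1* replicates 1 and 3, and -0.17 and -0.11 without WT replicates 1 and 2 (range -0.17 to 0.46). The interaction was 0.25 for RAB16B in job A alone, and for RAB16C 0.48 in job B alone, 1.07 without WT replicate 1 of normal growth and 0.36 without the 3 normal-growth arrays of job A (range -1.97 to 1.07).

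Replicate numbers did not pair the arrays. The correlations of same-numbered arrays ran from -0.27 to 0.32, and 6 of 18 were over 0.1. With the replicate block no member was called in any comparison of the 4 groups, and LEA19 with drought in WT had an adjusted p of 0.106 (limma).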
